A study of Bos taurus with 6 samples.

Results

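The intermediate filament genes KRT8, KRT18, KRT19, VIM, INA, LMNA, LMNB1 and DES were followed across 6 bovine 2-colour oligonucleotide arrays that set RNA of blastocysts against RNA of granulosa cells. Every probe whose platform symbol is one of these 8 names was taken, which gave 10 of the 43794 named probes: 3 for INA and 1 for each other gene. The 8 genes stand among 13229 genes tested. All 10 were above background often enough to be tested among 35050 probes. Spots over 30000 raw intensity units in either channel were marked as near the upper end of the scanner, where a higher transcript level no longer gives a higher reading. The blastocysts, embryos with an outer epithelium around a fluid cavity, were made in vitro from abattoir oocytes of 3 to 6 mm follicles, with mixed semen of 3 bulls, and frozen on day 7. The granulosa cells, somatic cells lining the follicle wall in the ovary, were aspirated from follicles over 5 mm of lactating Holstein cows on day 8 to 11 after oestrus. The cows had received 6 injections of 40 mg follicle-stimulating hormone, and collection followed the last by 44 h. There were 3 replicates, each hybridised with blastocyst RNA in Cy3 on 1 array and in Cy5 on another. The labels name 3 biological replicates and give no number of animals or embryos in each. The p-values thus cover the spread between these 3 pools alone, and part of that spread may be technical.

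Intermediate filaments are rope-like polymers that give cells and nuclei mechanical strength, and their subunits are switched on by cell type. Epithelial cells build them from pairs of a type I and a type II keratin, and KRT8 with KRT18 is the pair of simple epithelia and of the trophectoderm, the outer layer of the blastocyst. Mesenchymal and many somatic cells, granulosa cells among them, use the type III protein vimentin (VIM), which assembles without a partner. Desmin (DES) is the type III protein of muscle, and INA, alpha-internexin, is a type IV protein known from neurons. Lamins line the inside of the nuclear envelope: LMNA encodes the A-type lamins, which are prominent in differentiated cells, and LMNB1 encodes a B-type lamin found in most cell types.

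Blastocysts carried more KRT18 and INA transcript, granulosa cells far more VIM, and KRT8 leaned towards blastocysts without passing the test. A probe passed if its adjusted p in limma was under 0.05 and its mean log2 ratio over the 3 replicates was 1 or more in either direction. Of the 10 probes 4 passed, against 10.1% of all probes tested. In blastocysts 3 were higher (KRT18 and 2 INA probes), where 4.92% of all probes were, and in granulosa cells 1 was higher (VIM), where 5.17% were. These genes were listed with such differences already known, so their share is a description. The median log2 ratio was 0.86 over the 10 probes and -0.01 over all probes tested. Arrays report RNA of whole pools, so fewer cells of a type and less RNA per cell cannot be told apart.

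KRT18, the type I partner of the pair, exceeded its granulosa level 17.7-fold in blastocysts (a log2 ratio of 4.15 ± 1.28, SD, n = 3, adjusted p = 0.0318). With blastocyst RNA in Cy3, its raw intensities in replicates 1 to 3 were 3525, 10613 and 11360 for blastocysts and 347, 805 and 285 for granulosa cells. With the dyes exchanged they were 3149, 10367 and 10419 for blastocysts and 547, 987 and 385 for granulosa cells. Every blastocyst spot was brighter than every granulosa spot, none came near the scanner limit, and the probe was above background in both cell types on all 6 arrays. The log2 ratios of the replicates were 3.13, 3.73 and 5.59, and the array pairs of opposite dye differed little, with means of 4.07 and 4.23 in the separate orientations. Limma's F test, which asks whether a ratio differs between replicates by more than same-numbered arrays do, gave an adjusted p of 0.00158. Blastocyst pool 1 stood apart at a log2 intensity of 11.71, against 13.36 and 13.42 in pools 2 and 3. Among granulosa pools the order was 9.63 in pool 2, 8.58 in pool 1 and 7.83 in pool 3. The KRT18 call was lost without replicate 1 (adjusted p = 0.0741) and without replicate 2 (adjusted p = 0.138), at log2 ratios of 4.66 and 4.36. It held without replicate 3, at a lower log2 ratio of 3.43 (adjusted p = 0.0349).

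KRT8, the type II partner, gave nearly the same mean ratio with a wider spread and did not pass (4.09 ± 2.37, SD, n = 3, adjusted p = 0.0932, unadjusted p = 0.0253, 95% interval 0.91 to 7.28). Its blastocyst spots read between 36366 and 38593 on all 6 arrays, all over 30000. On 1 array the granulosa side was over 30000 too, so no bound on the fold can be given. The mean log2 ratio was 2.91 without replicate 3 and 5.28 without replicate 2. The granulosa side was spread far more widely. In Cy5 it read 6495, 34533 and 2635 in replicates 1 to 3, and in Cy3 it read 844, 3906 and 228. The same granulosa pools thus read 7.69, 8.84 and 11.6 times higher in Cy5 than in Cy3, whereas for KRT18 these quotients lay between 0.633 and 0.816. The log2 ratio was 2.43, 0.16 and 3.93 with blastocyst RNA in Cy3 and 5.79, 3.27 and 8.99 with it in Cy5. All 6 values were above 0, and the lowest came from the array on which the granulosa side was also over 30000. The ratio of KRT8 did not differ between replicates in the F test (adjusted p = 0.443), and it did once dye orientation was a term (adjusted p = 3.92e-05). That term raised the share of all probes so called from 10.3% to 37.8%. When the 6 arrays were fitted with replicate as a block, KRT8 passed at an adjusted p of 0.0191. The estimated block correlation of that fit was 0, so it counted the 6 arrays of 3 pools as separate samples and its p is too small. With a dye term the correlation was 0.66 and the adjusted p 0.0139. In the RefSeq gene table of ARS-UCD2.0, KRT8 and KRT18 are neighbours on a chromosome, with 1 other gene between them that does not code for protein.

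**Figure D1:**
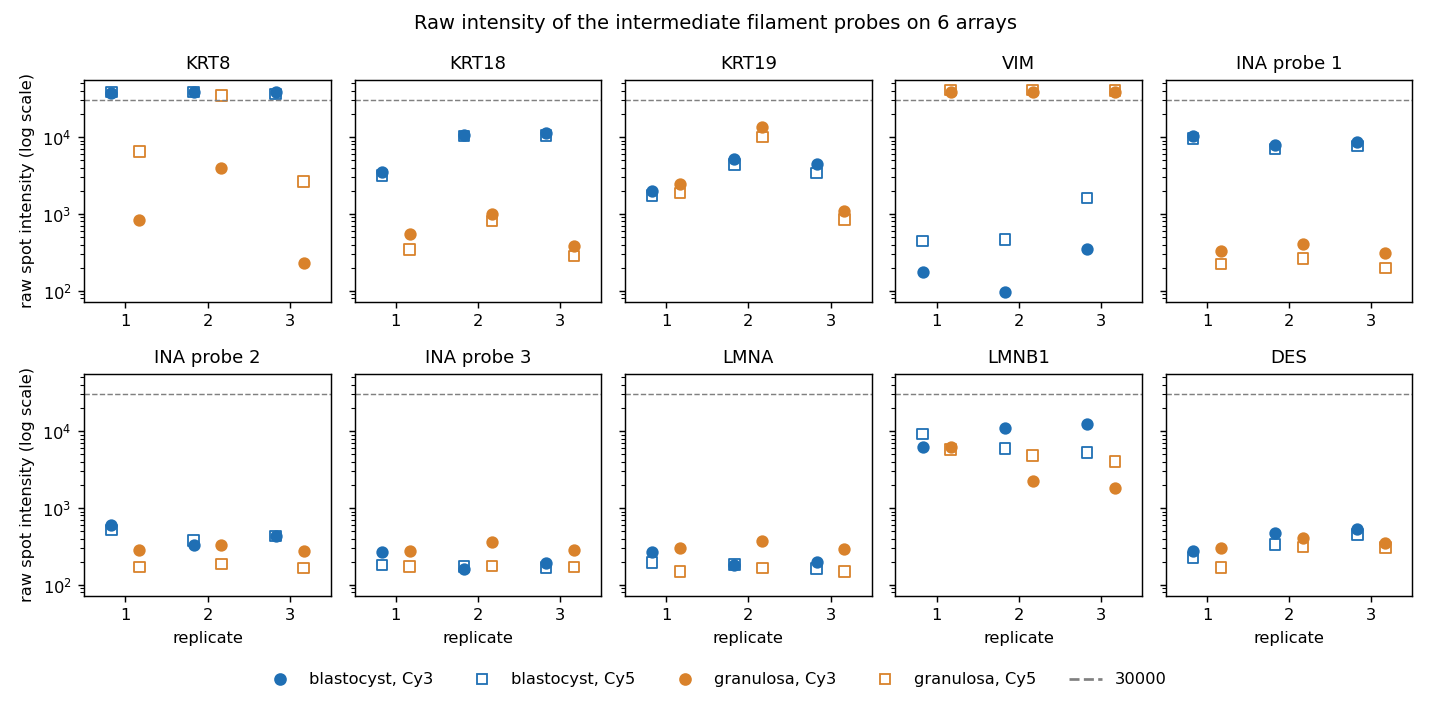
Raw spot intensity (log axis) of the 10 probes in each replicate, blastocyst in blue and granulosa in orange, with filled circles for Cy3 and open squares for Cy5. The dashed line marks 30000 units, which all 6 blastocyst spots of KRT8 and all 6 granulosa spots of VIM exceed, and the granulosa side of KRT8 and the blastocyst side of VIM read higher in Cy5.

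KRT19, a type I keratin that can also pair with KRT8, did not differ on average (0.24 ± 1.83, SD, n = 3, adjusted p = 0.847, 95% interval -2.21 to 2.70). The replicates went in opposite directions, with log2 ratios of -0.16, -1.34 and 2.24. Blastocyst spots read 2003, 5205 and 4488 in Cy3 and 1731, 4420 and 3429 in Cy5. Granulosa spots read 1862, 10014 and 845 in Cy5 and 2425, 13363 and 1086 in Cy3. Granulosa pool 2 was therefore brighter than any blastocyst pool and granulosa pool 3 dimmer than any, a range of 3.84 on the log2 scale among granulosa pools, against 1.35 among blastocyst pools. Opposite dyes gave the same picture, and the F test between replicates gave an adjusted p of 0.00137. Of the 10 probes 3 differed between replicates in this test (KRT18, KRT19 and LMNB1), against 10.3% of all probes tested.

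VIM, encoding vimentin, showed the reverse contrast, at least 127-fold higher in granulosa cells (log2 ratio -7.16 ± 1.16, SD, n = 3, adjusted p = 0.0113). Granulosa spots read 38506 to 41090 on the 6 arrays, all over 30000, and the log2 intensities of the 3 granulosa pools lay within 0.10 of each other. A reading so close to the limit cannot order the granulosa pools. Blastocyst spots read 177, 98 and 354 in Cy3 and 446, 466 and 1621 in Cy5, and were above background on 4 of 6 arrays. Blastocyst pool 3 was the brightest in either dye, at a log2 intensity of 9.37 against 7.72 and 7.25. As with the granulosa side of KRT8, the dim side read higher in Cy5, by 2.52, 4.76 and 4.58 times in replicates 1 to 3. The log2 ratio was accordingly -8.49 on average with blastocyst RNA in Cy3 and -5.83 with it in Cy5. VIM kept its direction on all 6 arrays. With p-values adjusted over probes it lost its call without replicate 1 (adjusted p = 0.0594) and without replicate 2 (adjusted p = 0.0672). Adjusted over genes, the VIM call held without replicate 1 and not without replicate 2. Its log2 ratio was -7.81 without replicate 3.

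**Figure D2:**
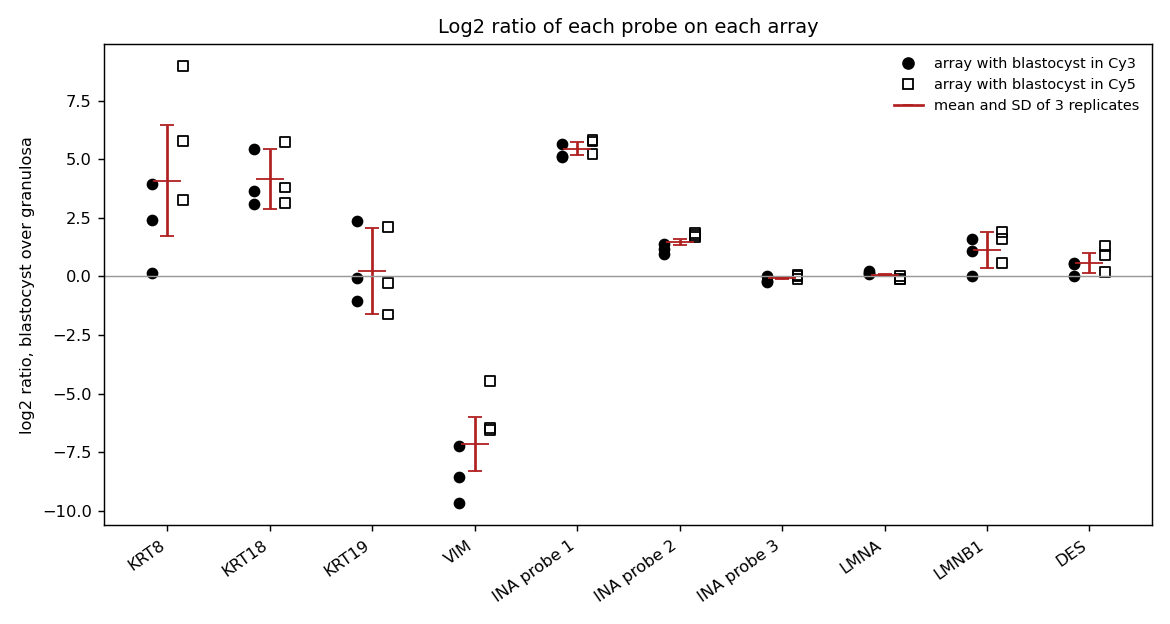
Log2 ratio of blastocyst over granulosa for each probe on each array, with filled circles for arrays with blastocyst RNA in Cy3, open squares for those with it in Cy5, and red bars for the mean and SD of 3 replicates. KRT8 and VIM separate by dye orientation, KRT19 spans 0, and the brightest INA probe clusters tightly at 5.45.

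INA gave the most repeatable difference of the 8 genes, by its brightest probe. That probe read 43.8-fold more in blastocysts (5.45 ± 0.28, SD, n = 3, adjusted p = 0.00377), with log2 ratios of 5.48, 5.16 and 5.71 in the replicates. Blastocyst spots read 7034 to 10321 and granulosa spots 197 to 406, so that no reading was near the scanner limit. A second INA probe was 2.78-fold higher in blastocysts (1.47 ± 0.14, adjusted p = 0.00768), from blastocyst spots of 332 to 598 and granulosa spots of 165 to 332. The other INA probe stayed at -0.07 ± 0.02 (adjusted p = 0.318), reading 160 to 269 in blastocysts and 171 to 357 in granulosa cells. Averaging the 3 probes gave a log2 ratio of 2.28 for the gene. The probes carry the same symbol and no sequence or position was used here, so whether they see the same transcripts was not tested. Both INA calls ended without replicate 2 when p-values were adjusted over probes (adjusted p = 0.0545 and 0.0551). Adjusted over genes, with the brightest probe standing for INA, the call held there.

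Neither lamin gene passed the test. LMNB1, the B-type lamin gene, was bright in both cell types, with blastocyst spots of 5286 to 12242 and granulosa spots of 1805 to 6257. Its log2 ratio of 1.13 ± 0.76 (SD, n = 3) did not pass (adjusted p = 0.119, 95% interval 0.11 to 2.15), although all 6 arrays were above 0. The replicates gave 0.29, 1.34 and 1.76 and differed in the F test (adjusted p = 0.0482). Averaged over both dyes, blastocyst pools were alike, at log2 intensities of 12.86, 12.97 and 12.99, and the granulosa pools fell at 12.57, 11.63 and 11.23. The dyes ordered the blastocyst pools in opposite ways, at 12.59, 13.39 and 13.55 in Cy3 and 13.13, 12.55 and 12.43 in Cy5. The order of the granulosa pools was the same in both dyes. LMNB1 passed in the block fit with a dye term (adjusted p = 0.0189), and in the one without it (adjusted p = 0.0114), whose correlation of 0 makes the p too small. With one probe per gene it was also called without replicate 1. LMNA, the A-type lamin gene, gave 0.05 ± 0.05 (adjusted p = 0.497, 95% interval -0.10 to 0.20). Its spots read 164 to 265 in blastocysts and 149 to 372 in granulosa cells, and it was above background on 5 and 3 of 6 arrays. A probe as dim as this one may be unable to show a difference in either direction.

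DES, the desmin gene, was also dim and did not pass (0.59 ± 0.42, SD, n = 3, adjusted p = 0.139, 95% interval 0.00 to 1.17). Its spots read 228 to 537 in blastocysts and 168 to 402 in granulosa cells. The replicates gave log2 ratios of 0.12, 0.71 and 0.94, and both cell types were dimmest in pool 1. Pool levels of the cell types did not overlap for 7 of the 10 probes, all except KRT19, LMNA and DES, against 41.7% of all probes tested. For the dimmest INA probe that gap was only between 7.07 and 7.15 in mean log2 intensity.

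In granulosa cells KRT8 and KRT19 had the widest ranges between pools of the 10 probes (4.71 and 3.84), and some epithelial genes shared their order while others did not. KRT8, KRT18 and KRT19 were all brightest in granulosa pool 2 and dimmest in pool 3, whereas 29.8% of all tested genes were brightest in pool 2. EPCAM, an epithelial adhesion molecule, read log2 intensities of 9.52, 14.54 and 7.34 in granulosa pools 1 to 3 (F test between replicates, adjusted p = 0.000816). PPL, encoding periplakin, which ties keratin filaments to the membrane, read 9.67, 11.88 and 8.47 (adjusted p = 0.000655). These EPCAM values came from a probe with spots over 30000 on 4 arrays, while its other probe gave a log2 ratio of 0.11. Other markers of the ovarian surface and mesothelium stayed dim in all 3 granulosa pools. UPK3B (7.07, 7.93 and 7.06), KRT7 (7.18, 7.52 and 7.34) and MUC16 (7.04, 7.32 and 7.07) were brightest in pool 2. CDH1 (7.06, 7.04 and 7.17) was not. MSLN and LRRN4 were not above background often enough to be tested. The 5 tested markers of the stratified epithelium of the vaginal wall summed to 997, 4587 and 953, led by PERP at 8.41, 11.91 and 8.11. KRT14 and TP63 did not exceed 7.46 in any granulosa pool. The 13 blastocyst markers summed to 2936, 4887 and 2356 in granulosa pools and to between 105906 and 117230 in blastocyst pools. Of these 13 markers 3 were brightest in granulosa pool 2: PLAC8 (9.40, 10.93 and 9.19 in pools 1 to 3) and the tight junction genes CLDN4 (8.13, 10.20 and 7.82) and CLDN6 (7.70, 8.23 and 7.96). The other 10, TFAP2C among them (8.45, 8.41 and 7.90), were not. What part these cell types have in the keratin readings of pool 2 was not tested.

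**Figure D3:**
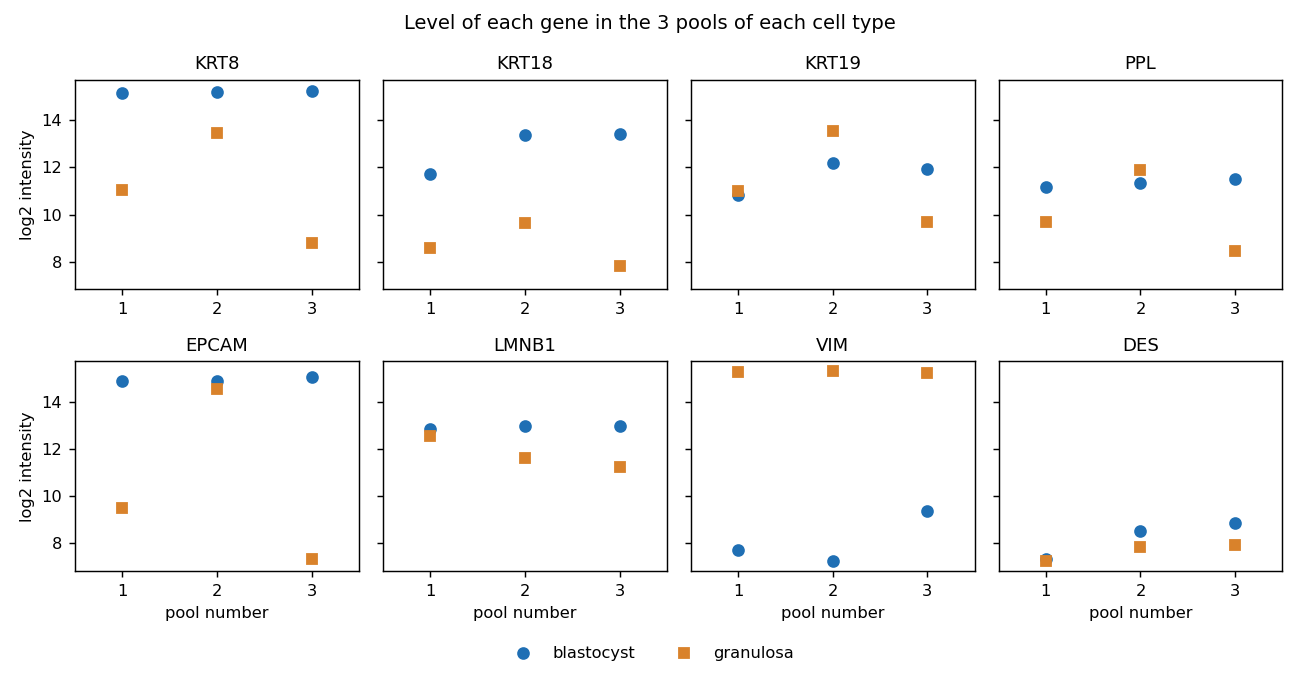
Log2 intensity after loess and Aquantile normalization, averaged over both dyes, in blastocyst pools (circles) and granulosa pools (squares) 1 to 3. Granulosa pool 2 is highest for KRT8, KRT18, KRT19, PPL and EPCAM, while VIM sits near 15.3 in all granulosa pools and reaches 9.37 in blastocyst pool 3.

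Connective tissue and blood cell markers, the other sources of vimentin, also varied between pools. The 12 stroma and smooth muscle markers summed to 68461, 109605 and 11986 in granulosa pools 1 to 3 and to between 16370 and 19294 in blastocyst pools. COL3A1, a collagen of loose connective tissue, read 15.14, 15.19 and 10.41 in granulosa pools. The VIM spots of all granulosa pools were over 30000, so whether VIM varied with these markers cannot be read from this probe. The 8 tested leukocyte markers summed to 7462, 3093 and 1451 and the 7 endothelial ones to 7733, 6126 and 1001. The labelled cell types carried their own markers: INHA, the inhibin alpha subunit, read 14.24 to 15.13 in granulosa pools and 7.56 to 8.57 in blastocyst pools. Of 11 granulosa markers 4 passed towards granulosa cells, where 8.15% of all genes did. The others did not pass, and NR5A1 alone had a mean log2 ratio above 0 (0.28). Of 13 blastocyst markers 10 passed towards blastocysts, where 6.18% of all genes did. In blastocyst pool 3, where VIM was brightest, the matrix gene LUM read 10.37, against 6.76 and 6.65 in pools 1 and 2, and CNN1, a smooth muscle calponin, 8.28 against 6.73 and 6.71. The whole stroma list was not higher there. The part of these cells in the VIM readings was not tested.

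Among the other keratins no gene passed, and most stayed close to background. The lists held 55 keratin genes, of which 44 were on the array and 30 were tested, and KRT18 alone of these passed. For single genes the brightest probe was used and p-values were adjusted over 13229 genes, of which 6.18% passed towards blastocysts and 8.15% towards granulosa cells. Leaving out KRT8, KRT18, KRT19 and KRT2, the 26 others had log2 ratios from -0.46 to 0.74. KRT7, a keratin of simple epithelia, gave -0.14 ± 0.11, and KRT14, of basal layers, -0.15 ± 0.13. KRT5 was not above background often enough to be tested. KRT2, a keratin of the upper epidermis, gave -2.58 ± 1.71 (adjusted p = 0.0984) and was called without replicate 1. Its granulosa pools 2 and 3 read 10.54 and 10.56, against 7.53 in pool 1 and no more than 7.05 in any blastocyst pool. Median log2 ratios were 0.05 over 13 type I and -0.05 over 17 type II keratins, and -0.02 over all genes. In the list of type III, type IV and lens filament proteins, VIM, INA and BFSP1, the lens filament protein filensin (1.54 ± 0.28, adjusted p = 0.0117), were the 3 of 10 that passed, and without replicate 2 INA alone did. NES, the progenitor cell protein nestin, gave 0.01 ± 0.08.

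The proteins that tie filaments to junctions split between the cell types. Among 14 linker genes tested, 2 passed towards blastocysts and 1 towards granulosa cells, with a median of -0.04. PLEC, the plectin gene, had no probe under its symbol. DSP, the desmoplakin that anchors keratin at desmosomes, was higher in blastocysts (3.81 ± 0.75, adjusted p = 0.0120), as was PKP2, a desmosomal plakophilin (2.83 ± 0.12, adjusted p = 0.00333). DST, the linker dystonin, was higher in granulosa cells (-3.13 ± 0.33, adjusted p = 0.00618). The DSP call was lost without replicate 1. DSP too was brightest in granulosa pool 2, at 8.40 against 7.07 and 7.08. PPL gave 1.33 ± 1.80 and did not pass (adjusted p = 0.293).

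At the nucleus the lamin and lamin-processing list had no gene past the test among 8, with LMNB2, the other B-type lamin gene, at 0.02 ± 0.02 and a log2 intensity of at most 7.11. The lamin-binding proteins of the nuclear envelope leaned towards granulosa cells, 4 of 12 against none in blastocysts, with a median of -0.36. The count was 2 without replicate 1 (SYNE1 and SYNE2), 1 without replicate 2 (SYNE2) and 4 without replicate 3. SYNE1 (-3.08 ± 0.39, adjusted p = 0.00723) and SYNE2 (-2.76 ± 0.36, adjusted p = 0.00766) encode nesprins, which couple the nucleus to the cytoskeleton. TMEM43 (-1.94 ± 0.67, adjusted p = 0.0313) and LEMD3 (-1.54 ± 0.40, adjusted p = 0.0201) encode inner nuclear membrane proteins. In blastocysts SYNE1 exceeded background on only 1 of 6 arrays. SYNE2 had spots over 30000 on 4 arrays, and its other probes gave -1.78 and -0.92. The other LEMD3 probes ranged from -0.51 to 0.04. EMD, encoding emerin, gave 0.15 ± 0.12, and LBR, the lamin B receptor gene, -0.24 ± 0.70, and neither passed. Over the 6 filament, lamin, lamin-binding and linker lists together 11 of 74 genes passed (14.9%), close to the 14.3% of all genes, and without replicate 2 this fell to 5.

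**Figure D4:**
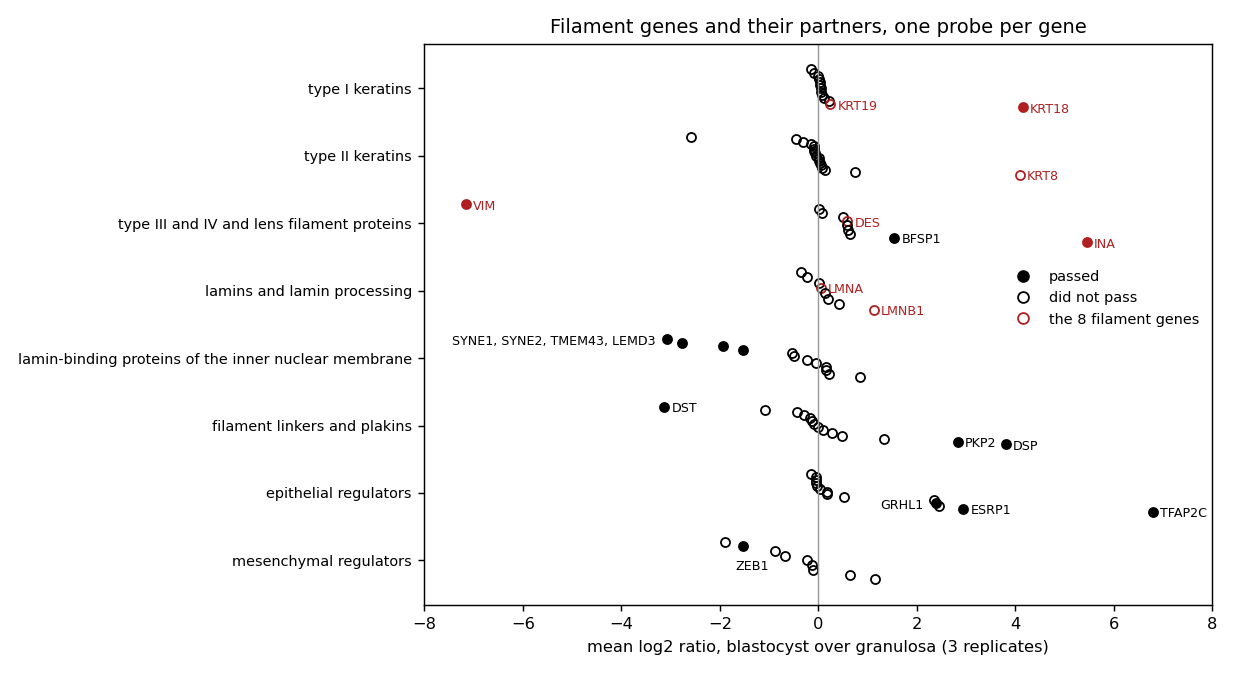
Mean log2 ratio over 3 replicates for every tested gene of the filament, nuclear envelope, linker and regulator lists, one probe per gene, with gene names written together standing in order from left to right. Filled circles passed and open circles did not, and the 8 filament genes are in red: VIM lies at -7.16, KRT8 and KRT18 at 4.09 and 4.15, and INA at 5.45, while most keratins crowd around 0.

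Regulators linked to the epithelial and mesenchymal states were mixed. Among 14 epithelial regulators the 3 that passed were all on the blastocyst side, TFAP2C (6.79 ± 0.33, over 30000 on all 6 arrays), the splicing regulator ESRP1 (2.94 ± 0.76) and GRHL1 (2.38 ± 0.29), with adjusted p of 0.00333, 0.0188 and 0.00703. ESRP1 lost its call without replicate 1 and GRHL1 without replicate 2. Other probes of TFAP2C gave 0.47 and 2.68, those of ESRP1 0.12 and 1.52, and that of GRHL1 1.31. KLF5 (2.34 ± 1.68, adjusted p = 0.114) and TFAP2A (2.45 ± 1.34, adjusted p = 0.0705) did not pass. In granulosa pools KLF5 read 7.50, 10.03 and 6.90, highest in pool 2. So were 8 of the 14 epithelial regulators, against 29.8% of all tested genes. Some of these 8 varied clearly, such as TFAP2A (8.48, 9.75 and 7.30). Others were dim with small gaps, such as TP63 (7.40, 7.46 and 7.43) and ELF5 (7.61, 7.68 and 7.52). Of 9 mesenchymal regulators ZEB1, a repressor of epithelial genes, was the 1 that passed, towards granulosa cells (-1.54 ± 0.35, adjusted p = 0.0162). It was above background in blastocysts on 2 of 6 arrays, and the call was lost without replicate 2 and without replicate 3. NR2F2 had the largest ratio of the list and did not pass (-1.90 ± 0.87, adjusted p = 0.0513, other tested probe -0.79). It was called towards granulosa cells without replicate 3. TWIST2 (1.15 ± 0.75, adjusted p = 0.0971) and FOXC2 (0.65 ± 0.21, adjusted p = 0.0342) had ratios above 0 and did not pass, FOXC2 for its size. TWIST2 was called towards blastocysts without replicate 1. The list medians were 0.18 and -0.23.

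The genes whose pool levels followed those of a filament gene most closely were ranked by Pearson's r over the 6 pools. These pools fall into separate cell types, so r mostly reflects that contrast. For KRT8 in blastocysts and VIM in granulosa cells the pools lie near the scanner limit, and their order within that cell type carries no information. For KRT8 they were CSTB, NUDT4, DCTD, GBP4 and CKB (r from 0.991 to 0.998). For KRT18 they were DBN1, BOK, TES, TNS3 and NDFIP2 (r from 0.995 to 0.997), and for VIM LIX1L, ZNF385B, SERPINA5, NELFA and SLC38A2 (r from 0.998 to 0.999).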

How the data were processed

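The deposited intensity columns used were the raw mean and the median local background of each spot at 532 nm (Cy3) and 635 nm (Cy5), uncorrected per the file headers, and were read by wavelength name. The authors' deposited value table is a score, the quotient of log2 net intensities (matched within 1e-04 for 100% of values), negated on arrays titled blastocyst. It served as an alternative. Using R 4.3.3 and limma 3.58.1, intensities were corrected with normexp (offset 50), normalized by loess within arrays, and turned to log2 ratios of blastocyst over granulosa. A probe was tested if, for either cell type, 3 or more of the 6 arrays exceeded the 95th percentile of 153 negative controls. Same-numbered arrays were averaged and the 3 replicates tested against 0 with eBayes (3.34 degrees of freedom) and Benjamini-Hochberg adjustment. Deviations of same-numbered arrays correlated at 0.85 to 0.93, others at -0.59 to -0.20, so the numbers in the titles were taken as pairing. Pool levels were log2 intensities after loess and Aquantile. A fold is given as at least its value where the brighter side alone was near the limit on all arrays. Such a bound holds for the mean of both dyes and leaves out the spread between replicates. Symbols came from the platform table (21790 of 43794 probes), 1524 of them updated through RefSeq synonyms. The methods were tested on simulated data. The genes and lists were chosen with earlier results of these data known. Named beside the 8 genes were list members that passed, fixed examples and the brightest markers. Others, such as KRT2, PPL, KLF5, TFAP2A, LUM, CNN1, PERP, UPK3B, NR2F2, TWIST2, FOXC2 and the claudins, were chosen after their values were seen. Median raw signal was 189 to 386 for Cy3 and 177 to 210 for Cy5, and the number of arrays limits precision.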

Additional observations from a re-analysis of the deposited data

How the results depend on the processing

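The number of passing probes was 4 without background correction, with subtraction, median centring, Aquantile and no filter. They were 5 without normalization, where KRT8 passed (adjusted p = 0.0407), and 3 without spots over 30000, which leave VIM and KRT8 no value. They were 2 when detection on all arrays was required of both cell types. Only KRT18, KRT19, LMNB1 and the brightest INA probe then stayed in the test. With the replicate block 6 probes passed, KRT8 and LMNB1 added, with or without a dye term. Without that term the block correlation was 0, which counts 6 arrays of 3 pools as separate samples, and with it 0.66. Leaving out each replicate gave 0 to 4 for these probes, 0 to 2538 for all probes (3536 in the full set), 854 to 1669 for genes (1896 in the full set) and 5 to 12 for the filament lists (added after seeing the data). Without replicate 2, limma called 0 of 10 probes, of which 5 had an unadjusted p under 0.05, as had 8505 of all probes. KRT19 ranged from -0.75 without replicate 3 to 1.04 without replicate 2. Without normalization the median of all probes moved from -0.01 to -0.20, and LMNA turned to -0.17. The authors' value table, with no ratio threshold, called 6443 probes and 3414 genes, and the same number of filament probes, 4. A dye term raised the probes differing between replicates from 3 to 7. The directions of KRT8, KRT18, VIM, DES, LMNB1 and the INA probes held in all alternatives that gave a value. The depth of reading limits KRT8 and VIM at the upper end and LMNA and DES at the lower.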

Other observations

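The dye gap of KRT8 and VIM was above the upper quartile of comparable probes near the scanner limit. For 58 probes with all blastocyst spots and no granulosa spot over 30000, the granulosa side read higher in Cy5 than in Cy3 by a median of 0.59 on the log2 scale (quartiles 0.44 and 1.11), and in 57 of them the gap was above 0. For 36 probes with the sides exchanged, the blastocyst side was higher in Cy5 in all 36, by a median of 0.62 (quartiles 0.43 and 0.81). The gap was 3.83 for the granulosa side of KRT8, which has 1 granulosa spot over 30000 and is not in the first set, and 2.42 for the blastocyst side of VIM. Among 241 probes with a mean log2 ratio of 3 or more and no spot over 30000 the median gap of the granulosa side was 0.33. Over all 34568 tested probes with no spot over 30000 it was 0.03. The source of the gap was not tested.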
